A study of Mus musculus with 4 samples.

Results

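A set of 10 genes that store, release and read calcium in the mouse egg were followed through RNA-seq of zygotes: the IP3 receptor genes Itpr1, Itpr2 and Itpr3, the store sensors Stim1 and Stim2, the entry channel Orai1, its brake Saraf, the store pump Atp2a2, the plasma membrane channel Trpm7 and the kinase Camk2g. They were taken by symbol from the deposited count table and all 10 were found, among 55291 features. The zygotes came in 4 samples of 1 each: an MO control, a sample injected with an H3.3 MO, an S31A control and a sample injected with H3.3 S31A. The labels spell out neither MO nor S31A. Histone H3.3 is the replication-independent H3 variant, and the series addresses how its maternal supply acts on the parental genomes in the zygote. The labels name no strain, age of the mice, number of zygotes or hours after fertilisation, and do not say what the control zygotes received.

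At fertilisation, a sperm phospholipase makes IP3, which opens IP3 receptors in the endoplasmic reticulum and starts repeated calcium waves in the egg. Between waves the SERCA pump refills the stores and calcium enters from outside, partly through plasma membrane channels. The waves are read by CaM kinase II, which releases the egg from its meiotic arrest. By the zygote stage most of these RNAs are stored products of the oocyte. In bulk samples, fewer cells with an RNA and less RNA per cell cannot be told apart.

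Each sample had 2 count columns, called libraries 1 and 2, and with 1 sample per group the differences between groups have no replicate check. Library totals ran from 5661621 to 13233371 counts. By counting error alone, a count of 0 in a library allows up to 0.23 to 0.493 CPM (counts relative to library size, scaled between libraries). For H3f3b, which encodes H3.3, the MO control libraries held 2199 and 1550 CPM and those injected with the MO 2.3 and 10.5 CPM. The S31A control libraries held 1453 and 1819 CPM of H3f3b and those injected with S31A 2438 and 2749 CPM. H3f3a, which also encodes H3.3, went from 462 and 586 CPM to 8.04 and 52.4 CPM with the MO. It was at 657 and 563 CPM in the S31A control and at 484 and 648 CPM in the S31A injected libraries. All 10 egg markers were present in all 8 libraries, with a summed level of 6475 to 14815 CPM. Sperm and spermatid markers summed to 1.3 to 6.74 CPM, with 6 of 8 at 0 in every library. Cumulus and granulosa markers summed to 35 to 165 CPM, 7 of 10 were at 0 in every library, and nearly all of the sum was Cyp19a1.

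The IP3 receptor genes are long paralogs, so their coding sequences were compared to see how far a short read could be shared between them. In GENCODE M21 (mm10) the coding sequences of Itpr1 and Itpr2 were 71.6% identical over 7990 aligned bases, those of Itpr1 and Itpr3 69.8% and those of Itpr2 and Itpr3 71.4%. The longest runs of identical bases were 28, 29 and 32 bases long. The stretches around the run shared by Itpr1 and Itpr2 and the run shared by Itpr2 and Itpr3 are given 5′ to 3′, with the identical run in capitals and 20 flanking bases on each side.
Itpr1, coding bases 8064 to 8131: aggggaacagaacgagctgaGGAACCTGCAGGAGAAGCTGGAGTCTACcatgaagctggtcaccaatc
Itpr2, coding bases 7920 to 7987: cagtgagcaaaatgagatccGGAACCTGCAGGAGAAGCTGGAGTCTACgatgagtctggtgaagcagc
Itpr2, coding bases 6671 to 6742: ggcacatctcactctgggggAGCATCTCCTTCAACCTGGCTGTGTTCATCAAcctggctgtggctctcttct
Itpr3, coding bases 6593 to 6664: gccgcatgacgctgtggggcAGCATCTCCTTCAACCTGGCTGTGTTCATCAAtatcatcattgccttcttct
The labels do not state the read length. Stim1 and Stim2 were 62.5% identical, with a longest shared run of 15 bases. Of the 10 genes, 4 shared exon bases with a gene on the opposite strand, at most 2.58% of their length (Itpr3 with Itpr3os).

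Stored egg RNAs are kept or woken through signals near their 3′ ends, so the annotated ends of the 10 genes were searched on the sense strand. A polyadenylation signal (AATAAA or ATTAAA, last 50 bases) was found in 9 of the 10 transcripts used and in 75.9% of 18222 coding transcripts. The cytoplasmic polyadenylation element (TTTTAT or TTTTAAT, last 150 bases), which drives tail lengthening in maturing oocytes, was found in Atp2a2 alone of the 10 and in 23.5% of all. The sites in the most abundant gene per length and in the genes with the largest ratios are shown, with the motif in capitals.
Atp2a2, cytoplasmic polyadenylation element: atgtctaatgtaTTTTATtgtaacagacat
Atp2a2, polyadenylation signal: gtttaaaagaaaAATAAAacattttaaatg
Saraf, polyadenylation signal: taatatgacaataaATTAAAaagacaggaa
Camk2g, polyadenylation signal: ttgaagatatttAATAAAataacctttaaa
Stim2, polyadenylation signal: tcaaatcacgctATTAAAattacttttact
The transcript used for Itpr2 held neither motif in these windows, and its annotated 3′ untranslated region was 191 bases long. The deposited length of Itpr2 was 14802 bases, against 8103 coding bases in this transcript. Ends of other annotated transcripts were not searched. RefSeq promoters (GRCm38.p6, 250 bases before to 50 after the start) were at hand for 6 of the 10 genes: Itpr2, Itpr3, Stim1, Stim2, Orai1 and Trpm7. Their GC content was 63.7% to 78.7%, where the median of 32851 promoters was 52.7%. None of the 6 held TATAAA on the sense strand, which 8.32% of all promoters did.

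Per length of gene, the order of the 10 genes was led by the pump. Atp2a2 encodes SERCA2, which moves calcium back into the endoplasmic reticulum, and its median over the 8 libraries was 122 CPM per kb, with a range of 79.7 to 147. It lay at percentile 93.7 of 7470 genes by this level. Its muscle and blood cell relatives Atp2a1 and Atp2a3 had 0 counts in all 8 libraries. Itpr2 followed at 38.2 CPM per kb (14.2 to 79.6), Camk2g at 23.1 (9.36 to 40.8), Saraf at 11.3 (3.63 to 76.4) and Orai1 at 9.3 (0 to 13.8). Itpr1 stood at 3.81 CPM per kb (1.79 to 9.01), Trpm7 at 2.84 (0.101 to 5.2) and Stim2 at 2.83 (1.13 to 6.4). Stim1 had 72 counts in all and Itpr3 had 10, and neither passed the filter of 10 CPM in any comparison.

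Not every step of this order held across libraries. Atp2a2 was above Itpr2 in 8 of 8 libraries and Itpr2 above Camk2g in 7. Camk2g was above Saraf in 5 of 8 and Saraf above Orai1 in 6. Orai1 was above Itpr1 in 7 and Itpr1 above Trpm7 in 7. Trpm7 was above Stim2 in 3 of 8, so these neighbours did not differ beyond their spread. The plot of levels per length shows the same overlap.

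**Figure D1:**
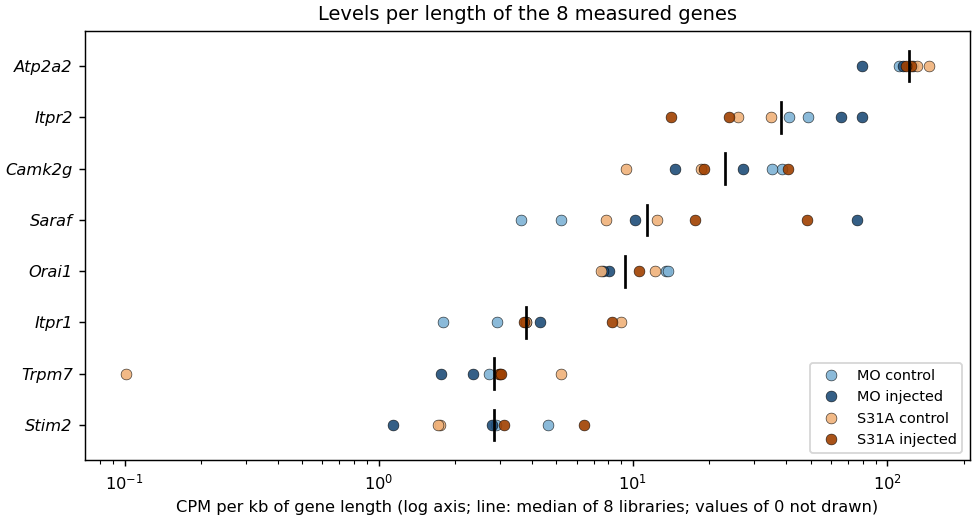
Level per length of the 8 genes that passed the filter, in CPM per kb on a log axis. Each dot is 1 library coloured by sample and the line is the median of 8 libraries. Atp2a2 lies to the right of every other gene's median at 122 CPM per kb, and the spread of Saraf from 3.63 to 76.4 covers the medians of 4 other genes.

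The release channels were dominated by Itpr2 in these counts. Itpr1 (chromosome 6, 108213096 to 108551109 in mm10) encodes the receptor usually described as the main one of the mammalian egg, and Itpr2 (chromosome 6, 146108299 to 146502223) a close relative with high IP3 affinity. As a share of the 3 receptor genes per length, Itpr2 made up 93.4% and 96.5% in the MO control libraries and 95.3% and 93.9% in the MO injected libraries. It made up 79.6% and 87.1% in the S31A control and 63.1% and 86.5% in the S31A injected libraries. Itpr2 was thus the larger in every library, by 1.71-fold to 27.4-fold over Itpr1, and all 4 MO libraries lay above all 4 S31A libraries. Itpr3, on chromosome 17, had 1 count in MO control library 1, 9 in MO injected library 1 and 0 in the other libraries. Its log2 ratio with MO injection had an interval of -0.17 to 8.14.

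**Figure D2:**
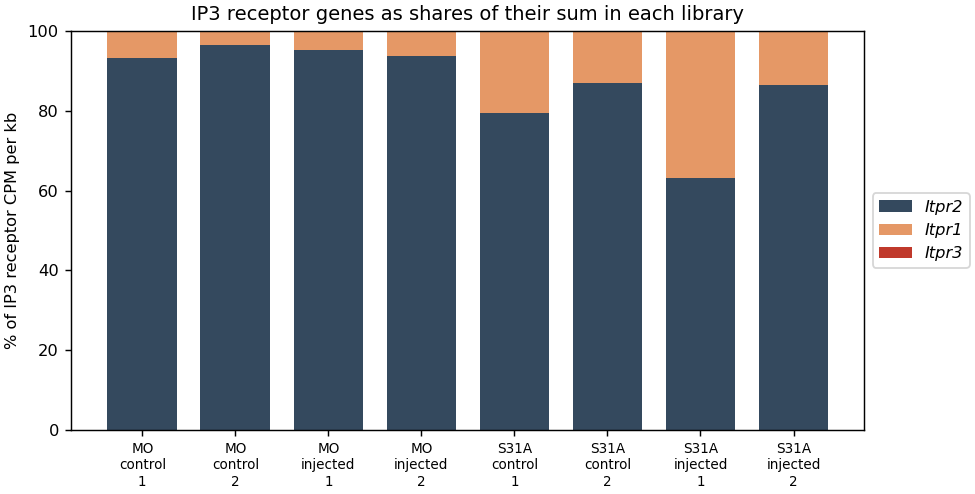
Share of each IP3 receptor gene in the sum of the 3, from CPM per kb of gene length, for each of the 8 libraries. The Itpr2 part runs from 63.1% in S31A injected library 1 to 96.5% in MO control library 2, and Itpr3, at most 0.0915%, is too small to be seen.

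Itpr2 was higher after the MO and lower after S31A than in the matching control. Its MO control libraries held 611 and 723 CPM, against 1178 and 973 CPM after injection. Its S31A control libraries held 519 and 382 CPM, against 209.7 and 353 CPM after injection. In both experiments the injected libraries lay on 1 side of their controls, above with the MO and below with S31A. Summed over libraries, Itpr2 was 1.73-fold higher with the MO (log2 ratio 0.79, 95% counting interval 0.76 to 0.83) and 1.63-fold lower with S31A (-0.71, -0.76 to -0.66). The S31A log2 ratio was -0.45 without S31A control library 1, -0.39 without S31A injected library 1 and -1.12 without S31A injected library 2.

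Itpr1 was higher with the MO and did not differ beyond counting error with S31A. It was at 53.6 and 32.7 CPM in the MO control and at 69.8 and 78.6 CPM in the MO injected libraries, which do not overlap (log2 ratio 0.75, interval 0.62 to 0.88, and 1.2 without MO control library 1). In the S31A experiment the libraries of a sample were further apart than the samples. The controls stood at 165 and 69.8 CPM and the injected libraries at 152 and 68.3 CPM, with a log2 ratio of -0.0098 (interval -0.091 to 0.071). It became 0.75 and -0.48 without S31A control library 1 and 2, and -0.81 and 0.36 without S31A injected library 1 and 2.

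The store sensors STIM1 and STIM2 sit in the endoplasmic reticulum membrane, feel the loss of stored calcium and open ORAI channels. Stim2 (chromosome 5, 53998499 to 54121057) was the sensor with counts in all libraries. It was at 23.7 and 14.8 CPM in the MO control and at 5.82 and 14.3 CPM in the MO injected libraries. Levels were 8.97 and 8.79 CPM in the S31A control and at 15.9 and 32.9 CPM in the S31A injected libraries. Both injected libraries were below both controls with the MO, the nearest pair by a small margin, and above both controls with S31A. The log2 ratio was -1.05 with the MO (interval -1.32 to -0.80) and 1.40 with S31A (1.16 to 1.65). The MO value shrank to -0.62 without MO control library 1 and to -0.52 without MO injected library 1, and was -1.80 without MO injected library 2. The S31A value was 0.81 without S31A injected library 2.

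Stim1 (chromosome 7, 102267806 to 102437319) was barely counted. It had 1 and 31 counts in the MO control libraries, 30 and 10 in the S31A control libraries and 0 in all 4 injected libraries. Taking 3 counts over the summed sample as the floor, it was at least 14.9-fold lower with the MO and at least 12.7-fold lower with S31A. These bounds do not include the spread between libraries. Without MO control library 2 the MO log2 ratio was -0.99, and without S31A control library 1 the S31A log2 ratio was -3.11. MO control library 2 holds 31 of the 32 control counts behind the MO values, and S31A control library 1 holds 30 of the 40 behind the S31A values. Sample levels of 2.03 and 1.82 CPM in the controls are below the filter, and no fold is given from the fit.

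ORAI1 is the pore that STIM proteins open, and SARAF is an endoplasmic reticulum protein that closes this entry once stores are full. Orai1 (chromosome 5, 123015074 to 123030456) was at 31 and 31.6 CPM in the MO control and at 18.5 and 17.5 CPM in the MO injected libraries. Both pairs were tight, with 1.02-fold and 1.06-fold between libraries, and they do not overlap (log2 ratio -0.73, interval -0.93 to -0.54). In the S31A experiment Orai1 stood at 28 and 17.2 CPM in the controls and at 24.2 CPM in injected library 1. It had 0 counts in injected library 2, where 0 allows up to 0.321 CPM by counting error alone. The summed log2 ratio was -0.73 (-0.95 to -0.52), and became 0.079 when S31A injected library 2 was left out and -0.32 when S31A control library 1 was. It was -1.0 when S31A control library 2 was left out, -7.62 when S31A injected library 1 was and -3.33 with equal weight of libraries; the last 2 depend on the prior count given to the library at 0. In S31A injected library 2 the relative Orai3 was at 10.4 CPM, while it was at 0 in both S31A controls and at 0.256 CPM in the other injected library. In the MO experiment Orai3 was at 5.33 and 0 CPM in the controls and at 0.0766 and 0 CPM in the injected libraries. Orai2 had 0 counts in all libraries.

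Saraf (chromosome 8, 34154563 to 34170845) had the largest ratio among the measured genes of the set in both experiments. It was at 10.8 and 15.5 CPM in the MO control and at 226 and 30.2 CPM in the MO injected libraries. Levels were 36.8 and 23.2 CPM in the S31A control and at 143 and 52.1 CPM in the S31A injected libraries. All injected libraries were above all of their controls, but library 1 was far above library 2 in both injected samples, by 7.49-fold and 2.74-fold. Saraf was 11.9-fold higher with the MO (log2 ratio 3.57, interval 3.37 to 3.8) and 3.45-fold higher with S31A (1.79, 1.66 to 1.92). Without MO injected library 1 the log2 ratio was 1.22, and without S31A injected library 1 it was 0.76. Those same libraries had the highest summed egg markers, 13445 and 14815 CPM against 6475 to 11934 CPM in the other 6. The markers did not move as one. In MO injected library 1 most of the sum was Gdf9 (4674 CPM) and H1f8 (5338 CPM). Bmp15 (1293 CPM), Zp2 (41 CPM) and Ooep (133 CPM) were lower there than in any other library. The part of egg marker levels in the Saraf difference was not tested.

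The pump differed little. Atp2a2 (chromosome 5, 122453513 to 122502225) was at 676 and 766 CPM in the MO control and at 485 and 700 CPM in the MO injected libraries, which overlap (log2 ratio -0.26, and -0.053 and -0.59 without MO injected library 1 and 2). It stood at 795 and 891 CPM in the S31A control and at 755 and 724 CPM in the S31A injected libraries, which lay just below (log2 ratio -0.18, and -0.052 without S31A control library 2). Its highest library was 1.84-fold above its lowest, the smallest span of the 8 measured genes.

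TRPM7 is a magnesium and calcium channel fused to a kinase, and it carries part of the calcium influx of the mouse egg and early embryo. Trpm7 (chromosome 2, 126791565 to 126876230) was at 30.6 and 34 CPM in the MO control and at 26.7 and 20 CPM in the MO injected libraries (log2 ratio -0.37, interval -0.55 to -0.19). The injected libraries lay below the controls, and the ratio was -0.71 without MO injected library 1. In the S31A experiment the controls stood at 58.9 and 1.14 CPM, 51.5-fold apart, on 630 and 13 counts. The injected libraries stood at 33.6 and 34.3 CPM, between the controls. The log2 ratio of 0.22 became 4.79 without S31A control library 1 and -0.75 without S31A control library 2.

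CaM kinase II gamma is the form that couples the calcium waves to exit from meiotic arrest in the mouse egg. Camk2g (chromosome 14, 20734875 to 20794088) made up at least 98.1% of the counts per length of the 4 CaM kinase II genes in each library. Camk2d had 146 counts in all, Camk2b 1 and Camk2a 0. Camk2g was at 247 and 225 CPM in the MO control and at 93.7 and 174 CPM in the MO injected libraries. Levels were 59.9 and 118 CPM in the S31A control and at 261 and 122 CPM in the S31A injected libraries. The injected libraries were below the controls with the MO, and above them with S31A, where the nearest pair was 118 against 122 CPM. The log2 ratio was -0.86 with the MO (interval -0.93 to -0.79) and 1.15 with S31A (1.08 to 1.23). The MO value was -0.48 and -1.38 with the first and the second MO injected library left out. The S31A value was 0.39 without S31A injected library 1, 0.79 without S31A control library 1 and 1.78 without S31A control library 2.

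**Figure D3:**
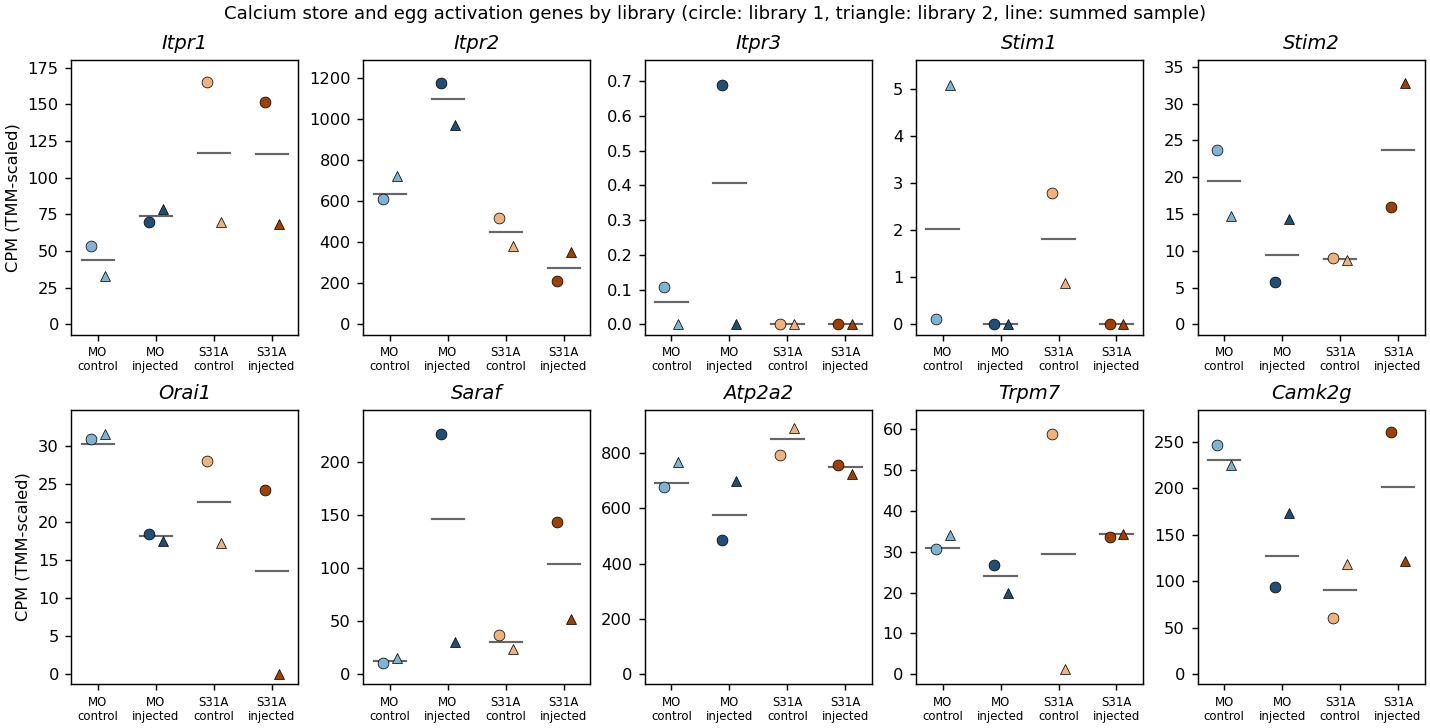
CPM of each of the 10 genes in the 8 libraries, on a linear axis that differs between panels. Circles are library 1, triangles library 2 and lines the summed samples. Saraf is above its controls in all 4 injected libraries with the highest at 226 CPM, and Trpm7 (1.14 CPM in S31A control library 2) and Orai1 (0 in S31A injected library 2) each have 1 library far from its partner.

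Counted together, 8 of the 10 genes passed the filter in each experiment. With the MO, 1 of the 8 was at least 2-fold higher (Saraf) and 1 at least 2-fold lower (Stim2), where 11.3% of all 8110 measured genes were higher and 12.5% lower. Both were also without overlap of libraries, as were 7.29% of measured genes on the higher and 10.4% on the lower side. The libraries did not overlap for 7 of the 8, Atp2a2 being the exception, against 40.5% of measured genes; 3 were higher and 4 lower, against 19.2% and 21.3%. The median log2 ratio was -0.31, and 0.033 over all measured genes. With S31A, 3 of the 8 were at least 2-fold higher (Saraf, Stim2 and Camk2g) and 0 lower, where 14.1% of 8191 measured genes were higher and 16.1% lower. These 3 were also without overlap of libraries, as were 9.19% of measured genes on the higher and 11.4% on the lower side. The libraries did not overlap for 5 of the 8, against 39.5%; 3 were higher and 2 lower, against 19.8% and 19.8%. The median was 0.11, and 0.021 over all. Scaling by total counts lowered the median of all genes to -0.092 and -0.088, without a change of sign for any of the 8. In that scaling 714 genes were higher and 1261 lower with the MO, against 913 and 1017.

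None of the 8 was called by the quasi-likelihood test of edgeR in either experiment, a test that compares these libraries and not the conditions. With the MO the Benjamini-Hochberg adjusted p over all genes was 0.825 to 0.868 for the 8, and the unadjusted p was under 0.05 for 2, Saraf and Itpr2, and for 5.29% of all genes. With S31A the adjusted p from edgeR was 0.802 to 0.991, and the unadjusted p was under 0.05 for 1, Saraf, and for 5.98% of all genes. edgeR called 0% of all genes with the MO and 0.0244% with S31A. DESeq2 called Saraf with the MO (adjusted p = 0.0206, higher in 2 of 2 injected libraries) and 0 of the 8 with S31A, where Saraf had an adjusted p of 0.0747, among 0.666% and 7.12% of all genes called. The libraries of a sample were themselves at least 2-fold apart for 24.8% of genes in the MO control and for 39.8% to 41% in the other samples.

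The difference between the experiments was tested with an interaction term over all 8 libraries. It was -1.38 for Itpr2, 1.91 for Camk2g and 2.38 for Stim2 on the log2 scale (S31A minus MO). The adjusted p from edgeR was 0.718, 0.746 and 0.859, and the unadjusted p was 0.0166, 0.0285 and 0.116. None of the 8 passed, and edgeR called 0.0334% of 8981 genes, DESeq2 1.63%, and 6.47% had an unadjusted edgeR p under 0.05. For Saraf the difference was -1.61 with an adjusted p of 0.940 from edgeR.

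**Figure D4:**
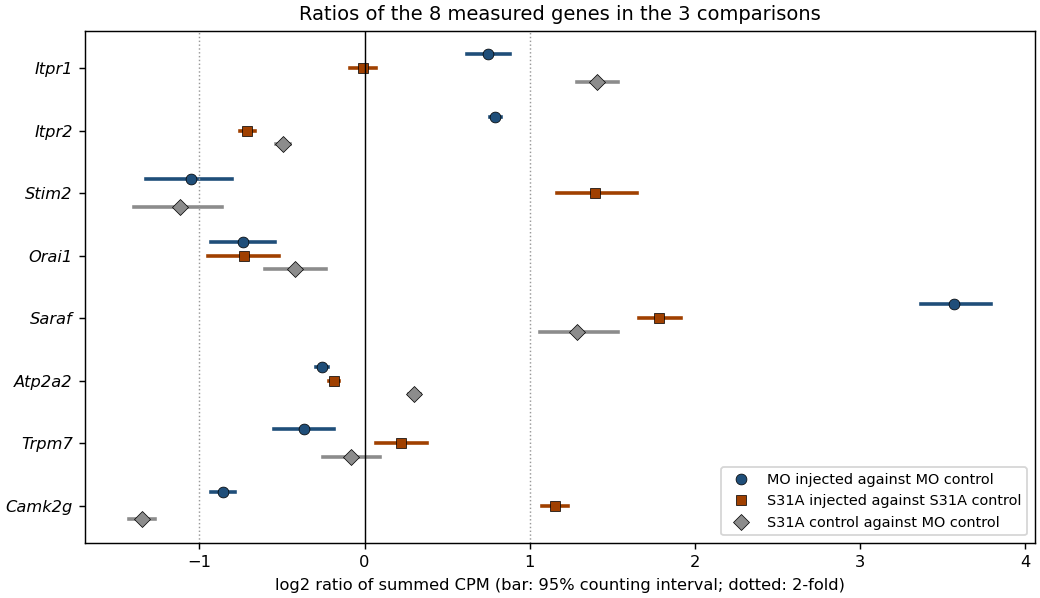
Log2 ratio of summed CPM for the 8 measured genes in the 3 comparisons, with 95% counting intervals that do not include the spread between libraries. Itpr2, Stim2 and Camk2g lie on opposite sides of 0 in the MO and S31A experiments, and Saraf lies at 3.57 and 1.79.

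The 2 control samples also differed from each other, at genes of the same set. In the S31A control relative to the other control, Itpr1 was higher (log2 ratio 1.41) and so was Saraf (1.29), while Camk2g (-1.35) and Stim2 (-1.12) were lower. Without S31A control library 1 these were 0.65 for Itpr1, 0.90 for Saraf and -0.98 for Camk2g, and without MO control library 1 Stim2 was at -0.69. That is 2 of 8 at least 2-fold higher, where 13.6% of measured genes were, and 2 of 8 lower, where 16.2% were. All 4 were without overlap of libraries, as were 9.67% and 14.5% of measured genes. Libraries did not overlap for 7 of the 8 between controls, against 46.4% of all genes; 3 were higher and 4 lower, against 21.2% and 25.2%. Gaps between the control samples were about as large as the injected-against-control ratios of Camk2g (-0.86 and 1.15) and Stim2 (-1.05 and 1.40). The experiment and any batch cannot be told apart. The MO libraries had 3.47% to 5.55% of counts on mitochondrial genes and the S31A libraries 7.13% to 10.4%.

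A list of 110 other genes of calcium handling and egg activation gave the setting, and 109 were in the table. With the MO, 56 were measured, 7 at least 2-fold higher and 5 lower (12.5% and 8.93%), with a median log2 ratio of -0.0043. With S31A, 60 were measured, 9 higher and 6 lower (15% and 10%), with a median of 0.029. Of all measured genes, 11.3% were higher and 12.5% lower with the MO, and 14.1% and 16.1% with S31A. The shares higher on the list were near these, and the shares lower, on 5 and 6 genes, were below them.

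The egg's calcium machinery outside the set was unevenly counted. Plcz1, the sperm phospholipase, had 0 counts in all libraries, and of the ryanodine receptor genes Ryr1 and Ryr3 had 0 in 6 and 5 of the 8, while Ryr2 ran from 0.749 to 13.4 CPM. Cacna1h, the T-type channel of the mouse egg, ran from 7.56 to 43.2 CPM, and Trpv3, another egg channel, was at 0 in 4 libraries. Fbxo43 encodes EMI2, the arrest factor destroyed after CaM kinase II acts on it, and ran from 219 to 602 CPM. Its log2 ratio was 0.34 with the MO and 0.82 with S31A.

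Store lumen and receptor regulators were the group with the lowest median with the MO, at -0.65 over 11 measured genes, and stood at -0.80 over 12 with S31A. Of these, 1 was at least 2-fold higher and 2 lower with the MO (9.09% and 18.2%, against 11.3% and 12.5% of all measured genes), and 2 higher and 2 lower with S31A (16.7% and 16.7%, against 14.1% and 16.1%). Tmbim6, a leak channel of the endoplasmic reticulum, was at 94.3 and 167 CPM in the MO control and at 41.1 and 62.4 CPM in the MO injected libraries (log2 ratio -1.25), and at -0.87 with S31A. Cherp, which was described as a regulator of calcium release, was at 1.26 with the MO. Grina, a relative of Tmbim6, was at -1.38 with S31A, from 56.3 and 64.8 CPM to 9.55 and 40.4 CPM. The 2 higher with S31A were Hspa5 and Hsp90b1, chaperones of the store lumen, at 2.37 and 1.48 with overlapping libraries. Hspa5 was at 291 CPM in S31A injected library 1 and at 31.6 to 37.2 CPM in the other 3 libraries, and it stood at -0.71 with the MO. Calr, the main calcium-binding protein of the store, stood at -0.72 with overlapping libraries with the MO and at -0.57 with S31A.

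Mitochondria take up calcium through the uniporter, whose pore is encoded by Mcu and whose dominant-negative subunit is encoded by Mcub. Mcu was at 352 and 369 CPM in the MO control and at 829 and 635 CPM in the MO injected libraries (log2 ratio 1.12, interval 1.07 to 1.16). It did not differ beyond counting error with S31A (0.025, -0.023 to 0.073). Mcub was at -1.72 with S31A, from 7.76 and 24.5 CPM to 7.59 and 1.5 CPM, so that the nearest libraries were almost equal, and at 0.83 with the MO. Of 10 measured genes of mitochondrial uptake 1 was at least 2-fold higher and 0 lower with the MO, against 11.3% and 12.5% of all measured genes. With S31A 1 of 9 was higher (Vdac2, an outer membrane channel, at 1.06) and 1 lower, against 14.1% and 16.1%. Vdac2 was at -0.97 with the MO, and its libraries did not overlap in either experiment.

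Other genes of the list at least 2-fold apart without overlap were spread over roles. Plcb4, a phospholipase C, was at -2.35 with the MO, from 29.5 and 16.9 CPM to 0.0766 and 10.9 CPM. In the S31A experiment Plcb4 was under the filter, at 0 in the control libraries and at 6.22 and 4.71 CPM in the injected libraries. Astl, the cortical granule protease, was at 2.14 with the MO, where injected library 1 held 143 CPM and the other 3 held 20 to 40.7 CPM. It was at -1.16 with S31A, where 1 control library held 101 CPM and the other 3 held 28.3 to 30.9 CPM. Slc30a5, a zinc transporter, was at 1.36 with the MO, from 15.9 and 26.1 CPM to 62.1 and 31.2 CPM. Rab3a, a small GTPase of granule exocytosis, was at -1.96 with S31A, from 44.9 and 35.3 CPM to 1.53 and 21.1 CPM. Rps6ka1, a kinase of the MOS pathway, was at 1.51, from 1.31 and 7.47 CPM to 7.5 and 19.7 CPM, and its nearest libraries were almost equal. Cdc20, an activator of the anaphase-promoting complex, was at 1.13.

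**Figure D5:**
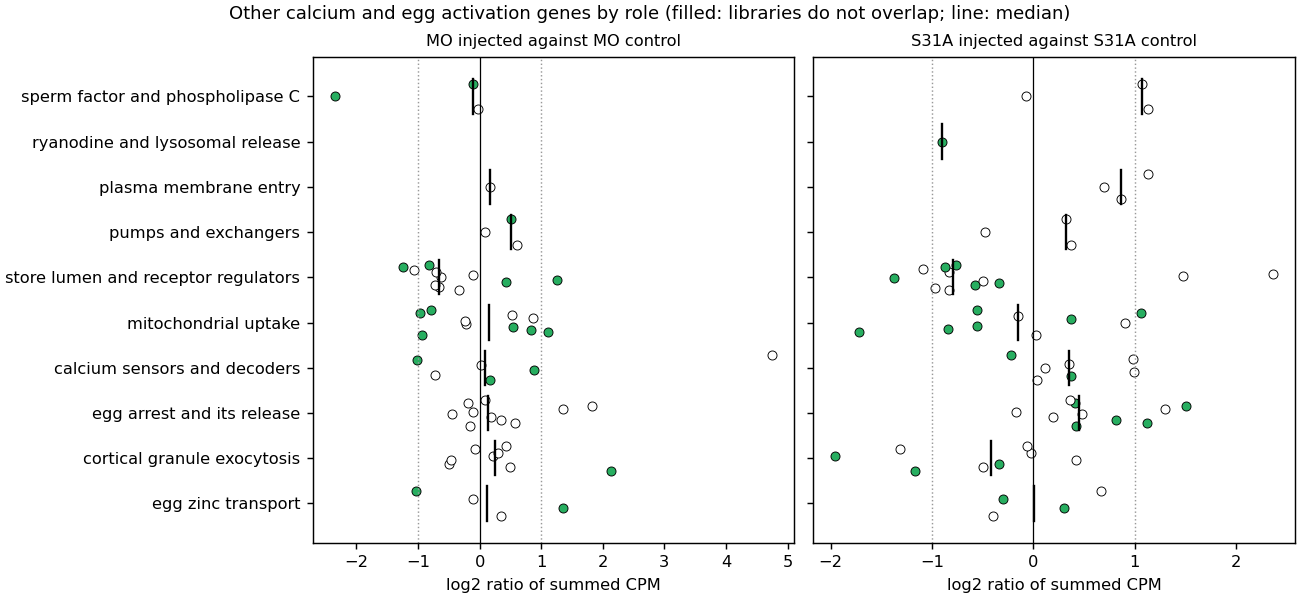
Log2 ratio of summed CPM for the measured genes of the wider list, by role, in the MO (left) and S31A (right) experiments. Filled points have libraries that do not overlap, lines are medians and dotted lines mark 2-fold. Store lumen and receptor regulators have medians of -0.65 and -0.80; roles with few measured genes, such as the 3 phospholipase C genes at 1.07 with S31A, rest on few points.

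As a description of pattern, the genes whose log2 CPM over the 8 libraries of 4 samples was most like that of Itpr1, among 7469, were Ebna1bp2 (Pearson r 0.941), Luc7l2 (0.925) and Rps2 (0.911). For Camk2g they were the pseudogene Gm48691 (0.976), Lats1 (0.962) and Rnf169 (0.956). The points share libraries and depth in pairs, and the best of so many genes is high by selection.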

How the data were processed

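The authors' deposited counts are whole numbers of reads per gene with no normalization. The submitters' processing notes name mm10 and the tools Bowtie2, featureCounts, FastQC and DESeq2; for versions, annotation release, strand setting and multi-matching reads the entry is "not given in the sources used here". Reads spanning a splice junction are not split by Bowtie2. Gene lengths are as deposited, per the file headers. Per the labels' protocols, cDNA from total RNA was amplified by PCR; intervals cover counting error only. Whether the 2 columns of a sample are separate pools of embryos was not given. They differed beyond counting error, with a chi-square of 51.5 to 130 per degree of freedom. They are treated as libraries of 1 sample because both carry the title of 1 sample, which the chi-square does not test.

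Counts were summed per sample and scaled by TMM (edgeR 4.0.16, R 4.3.3). Log2 ratios used a prior count of 2, for genes reaching 10 CPM in at least 1 compared sample. Intervals are exact 95% Clopper-Pearson. edgeR's quasi-likelihood test and DESeq2 1.42.0, with Benjamini-Hochberg adjustment, were run over libraries on all measured genes; the p-values reflect library spread alone, which may be technical. The code was tested on simulated counts. Coding sequences were aligned with Biopython 1.88. Coordinates are the file's; 9 of the 10 genes had the same in GENCODE M21, and Saraf's ends differed.

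The genes and lists were chosen with earlier results of these data known. All 10 genes were named. From the wider list up to 6 per comparison were named, those with the largest log2 ratio among genes at least 2-fold apart without overlap of libraries. Plcz1, Ryr1, Ryr2, Ryr3, Cacna1h, Trpv3, Fbxo43, Calr, Hspa5, Hsp90b1, Vdac2 and the relatives of the 10 genes were chosen after their values were seen. 1 listed symbol, Irag2, was not matched. Alternatives were other scalings, filters, prior counts and weights, a library-number block, and leaving out each library.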

Additional observations from a re-analysis of the deposited data

Results flagged for a closer look

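Itpr2, Stim2 and Camk2g were flagged because all libraries of 1 injected sample lay on 1 side of their controls and all libraries of the other injected sample on the opposite side. For Itpr2 the log2 ratios were 0.79 with the MO and -0.71 with S31A, for Stim2 -1.05 and 1.40, and for Camk2g -0.86 and 1.15. Taking each experiment alone and either direction, libraries did not overlap for 40.5% of all measured genes with the MO and for 39.5% with S31A. The share of all genes on opposite sides in the MO and S31A experiments is not given. Whether these genes are unusual in this therefore cannot be told. Between the control samples (S31A control over MO control) Itpr2 was at -0.49, Stim2 at -1.12 and Camk2g at -1.35. The edgeR interaction test over the libraries did not pass for any of them (adjusted p = 0.718, 0.859 and 0.746), nor did DESeq2 (0.124, 0.638 and 0.276).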

How the results depend on the processing

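By counting error alone, a count of 0 allows at most 0.493 CPM in any library, under the filter of 10 CPM. Genes of the set at least 2-fold higher with the MO numbered 1, and 2 with no filter; those lower numbered 1, and 2 at 1 CPM, 0 at 50 CPM and 2 with no filter. With S31A, those higher numbered 3, and 2 at 50 CPM and 4 with equal weight of libraries; those lower numbered 0, and 1 at 1 CPM, with no filter and with equal weight. Between controls 2 were higher and 2 lower, 1 and 1 at 50 CPM, and 3 were lower with equal weight. Leaving out 1 library gave 1 to 2 higher and 0 to 2 lower with the MO, 1 to 3 higher and 0 to 1 lower with S31A, and 0 to 2 higher and 1 to 2 lower between controls. Among measured genes of the set at least 2-fold apart, no ratio changed sign under the alternatives run; Itpr3, under the filter, went from 1.64 to -0.63 without MO injected library 1.

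edgeR called 0 of all genes with the MO (429 at an unadjusted p under 0.05), 54 by DESeq2, 2 with scaling by total counts, 3 at 50 CPM, and 0 to 700 with 1 library left out, where 700 came from leaving out the second injected library and 23 the first. With S31A it called 2, Gm37486 and Gm6485, 583 by DESeq2, 5 at 50 CPM, and 0 to 2 with 1 library left out; 0 came without either control library. For the difference between experiments it called 3, these and H3f3b, all named after their values were seen, 146 by DESeq2, and 1 to 4 with 1 library left out. The cause of these shifts was not tested. Library numbers did not pair the libraries (correlation of deviations 0.068 and -0.012), and with the number as a replicate block the calls were 0, 2 and 3.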
